A study of Mus musculus with 6 samples.

Results

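RAW264.7 is a macrophage-like line that was grown from a tumour of a male BALB/c mouse carrying Abelson murine leukemia virus, and it is widely used as a stand-in for resting macrophages. Described here are its 3 libraries given only phosphate buffered saline (PBS) for 24 h, out of 6 libraries in the study. The other 3 libraries received drug-loaded nanoparticles and were not used here. The PBS libraries were chosen by their titles, and rows of the table by an Ensembl mouse gene identifier, which left 22105 of 22614 rows. Of these, 9921 genes (44.9%) had a mean of at least 1 FPKM over the 3 libraries and are called expressed. FPKM scales fragments by transcript length and by the size of the library, so levels can be set side by side between genes of different length. The table names no unit, and FPKM was inferred from its values. Ranks below count down from the highest of the 9921. All errors are SDs over n = 3 libraries, with no second group and therefore no test. The labels do not say whether the libraries came from separate cultures, so the spread may be technical.

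Macrophages live on signals through the receptor Csf1r, are specified by the transcription factor PU.1 (Spi1), and carry sensors for microbes, uptake receptors for debris and a large lysosomal system. Tissue macrophages add programs of their own that lines in culture often lack. A macrophage line differs from most tissue macrophages in that it divides without end, so its RNA holds both a differentiated and a proliferating program.

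All 6 genes taken as marks of the line were expressed, the lowest of them still within the highest 10.7% of expressed genes. Csf1r, the receptor for the growth factors Csf1 and Il34, stood at 305, 291 and 292 FPKM (296 ± 7.93, rank 222). Spi1 stood at 140.3, 133 and 121 FPKM (132 ± 9.52, rank 549). Cx3cr1, the fractalkine receptor, stood at 75.7, 73.7 and 76.3 FPKM (75.2 ± 1.36, rank 1059). It was the lowest of the 6, and its range did not meet that of any of the others. Trem2, a lipid-sensing receptor of microglia and other macrophages, stood at 238, 232 and 221 FPKM (230.2 ± 8.63, rank 286). Ccl3, a chemokine also called MIP-1 alpha, stood at 270.2, 320.4 and 326 FPKM (306 ± 30.8, rank 218). Plau, the urokinase protease, stood at 163, 158 and 162 FPKM (161 ± 2.4, rank 436). Csf1r and Ccl3 could not be put in order, since Ccl3 was below Csf1r in PBS replicate 1 and above it in replicates 2 and 3. On GRCm38, Spi1 lies at chr2:91082390-91115756, Cx3cr1 at chr9:119901616-120069879, Trem2 at chr17:48346401-48354147, Ccl3 at chr11:83647844-83649355 and Plau at chr14:20836660-20843385, and Csf1r lies on chromosome 18. The annotated span of Cx3cr1 holds 3 other expressed genes, the highest of them Wdr48 on the opposite strand at 16.4 FPKM.

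**Figure D1:**
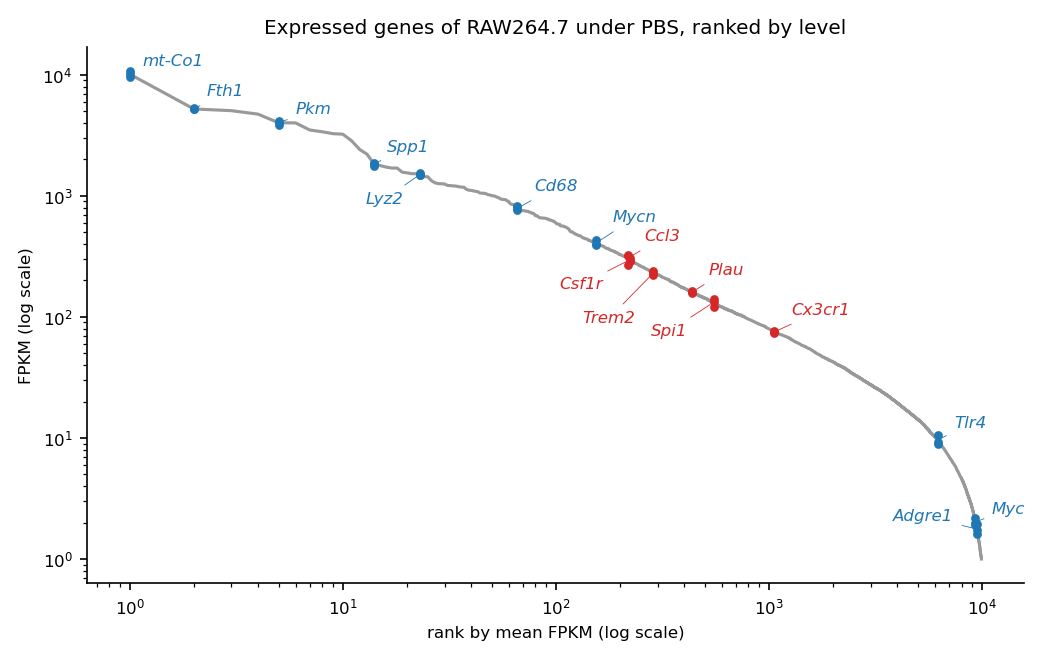
Mean FPKM (y axis, log scale) of the 9921 expressed genes in order of rank (x axis, log scale), as a grey line, with the 3 library values of named genes as points, red for the 6 marks of the line. The red genes lie between ranks 218 and 1059, below Lyz2 and Spp1 and far above Adgre1 and Myc.

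Promoters were read from the RefSeq table for GRCm38.p6, which matched 8019 of the 9877 expressed protein-coding genes (81.2%). They are shown for a pair of programs of the line, macrophage identity and mitosis, as examples chosen with their motifs in view. Each sequence below is the 120 bases before a RefSeq start that overlap no annotated exon, 5′ to 3′ on the strand of the gene. Capitals mark 3 of the motifs searched, each read on either strand. GAGGAA is the core bound by PU.1 and its relatives and reads TTCCTC on the other strand. CCAAT is the box bound by NF-Y and reads ATTGG on the other strand. GGGCGG is the box bound by Sp1 and reads CCGCCC on the other strand.
Trem2, chr17:48346281-48346400, plus strand: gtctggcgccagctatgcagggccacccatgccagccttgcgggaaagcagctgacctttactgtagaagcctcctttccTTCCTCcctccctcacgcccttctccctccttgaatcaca
Ccl3, chr11:83649379-83649498, minus strand: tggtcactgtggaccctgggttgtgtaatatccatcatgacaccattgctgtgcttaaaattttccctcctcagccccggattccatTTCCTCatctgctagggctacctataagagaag
Cd63, chr10:128909225-128909344, plus strand: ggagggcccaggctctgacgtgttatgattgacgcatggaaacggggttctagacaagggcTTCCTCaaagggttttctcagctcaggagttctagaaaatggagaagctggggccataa
Cd68, chr11:69666171-69666290, minus strand: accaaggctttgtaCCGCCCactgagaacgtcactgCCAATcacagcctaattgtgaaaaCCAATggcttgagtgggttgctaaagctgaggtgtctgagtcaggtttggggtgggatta
Ccnb2, chr9:70421555-70421674, minus strand: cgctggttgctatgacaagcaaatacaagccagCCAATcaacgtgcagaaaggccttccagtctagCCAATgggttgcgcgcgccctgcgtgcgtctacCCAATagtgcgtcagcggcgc
Top2a, chr11:99024190-99024309, minus strand: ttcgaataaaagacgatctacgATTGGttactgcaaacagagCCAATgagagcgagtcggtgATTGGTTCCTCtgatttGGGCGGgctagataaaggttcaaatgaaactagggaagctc

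In these windows, TTCCTC began 40 bases before the start of Trem2, 33 before that of Ccl3 and 59 before that of Cd63, a tetraspanin of lysosomes and exosomes. The window of Cd68, a lysosomal membrane protein of macrophages, held CCAAT at 84 and 60 bases before its start and no TTCCTC. Ccnb2, cyclin B2, held 3 copies of CCAAT, beginning 87, 54 and 21 bases before its start. Top2a, the topoisomerase of dividing cells, held 3 copies as well, at 98, 78 and 58 bases in either orientation, and one TTCCTC that adjoins the last of them. A match describes the letters only and is not evidence of binding.

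Over the 250 bases before the start, CCAAT was present in 22 of the 27 promoters of expressed genes of G2 and mitosis that had a sequence (81.5%), against 37.7% of all expressed genes with one. Among genes that act as brakes on the cycle or belong to the p53 axis, 11 of 14 held it (78.6%), and among enzymes of the tricarboxylic acid cycle 14 of 24 (58.3%). Glycolysis and glucose uptake had 7 of 23 (30.4%). GAGGAA was present in 5 of 27 mitotic promoters (18.5%), close to its share over all expressed genes of 21.8%. CCGGAAGT, the ETS motif of many housekeeping genes, was in 7.25% of expressed promoters and in 10 of 69 promoters of mitochondrial ribosomal protein genes (14.5%). Over all expressed genes the median promoter held 17 CG dinucleotides and 60.4% G and C, and 78.5% held at least 10 CG dinucleotides. TATAAA beginning 20 to 40 bases before the start was in 0.923% of expressed promoters, 0.668% of those of genes from 10 to 100 FPKM and 2.26% of those from 100 to 1000 FPKM. On both strands of the 250 bases, GGGCGG was in 61.8% of expressed promoters, CACGTG, the E-box bound by Myc proteins and by Usf1, in 8.88%, TGACGTCA, the site of Creb1, in 2.89% and a consensus site of NF-kB in 0.175%. For the macrophage surface list, only 23 of 32 expressed genes had a sequence (71.9%), under the 80% set as the minimum, so its comparison is void. Its members with a sequence had a median of 4 CG dinucleotides.

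The 10 highest transcripts were mitochondrial or belonged to iron storage, translation or glycolysis. The highest gene was mt-Co1, a subunit of cytochrome c oxidase encoded in the mitochondrial genome, at 9637, 10105 and 10684 FPKM (10142 ± 525). Next came the ferritin heavy and light chains, which store iron: Fth1 at 5212, 5290 and 5179 FPKM (5227 ± 57) and Ftl1 at 5209, 5104 and 4868 FPKM (5060 ± 175). Their ranges overlapped. Fth1 was the higher within each library, though by little in replicate 1, so their order is not firmly resolved. The translation elongation factor Eef1a1 followed at 4738 FPKM and the pyruvate kinase Pkm at 4018 ± 120.1 FPKM, with mt-Atp6, mt-Cytb, mt-Co2, mt-Atp8 and mt-Nd1 between 3235 and 4010 FPKM. The 10 highest genes held 10.1% of all FPKM, the 100 highest 30.4% and the 1000 highest 64.5%. It took 407 genes to reach 50% of the FPKM and 4147 to reach 90%. The 13 mitochondrially encoded genes held 7.97 ± 0.508% of the FPKM and the cytosolic ribosomal protein genes 11.4 ± 0.314%.

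Between the extremes, 51 genes stood at 1000 FPKM or more, 714 from 100 to 1000, 5289 from 10 to 100 and 3867 from 1 to 10. The median expressed gene stood at 14.3 FPKM, with quartiles at 5.92 and 33.8. A further 3826 genes had a mean above 0 and under 1 FPKM, and 8358 (37.8%) were listed at 0 in all 3 libraries. The libraries were close to each other. Each pair had a Pearson r of 0.995 across the 9921 genes on the log2(FPKM + 1) scale, a description in which genes are not independent replicates. The median SD of that value was 0.0724, and the median coefficient of variation fell from 8.1% for genes from 1 to 10 FPKM to 3.71% for genes from 100 to 1000. PBS replicate 3 was the library farthest from the rest for 37.3% of genes at 10 FPKM or higher, replicate 1 for 32.7% and replicate 2 for 30.0%. Libraries differed slightly by transcript length: from replicate 1 to replicate 3 the median log2 difference was -0.0475 for the 1512 genes with the shortest transcripts and 0.0399 for the 1512 with the longest, among genes of at least 10 FPKM. The part of that drift in any gene's spread was not tested.

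Among 50 lineage transcription factors, 33 were expressed (66%, against 44.9% of all genes), and Spi1 was the only one above 100 FPKM. The median expressed member stood at 12.6 FPKM, near the 14.3 FPKM of all expressed genes. Irf5, an interferon regulatory factor used downstream of Toll-like receptors, stood at 75.7, 72.1 and 68.6 FPKM (72.1 ± 3.57), and Cbfb, the partner of Runx proteins, at 71.4 ± 6.19 FPKM. Their ranges overlapped. Cebpb, a C/EBP factor of myeloid cells, stood at 42.4, 44.5 and 40.6 FPKM (42.5 ± 1.92), above Cebpa at 11.1 ± 0.45 FPKM with no overlap. Irf8, needed for monocyte development, stood at 20.7 ± 1.24 FPKM and Runx1, a factor of blood stem cells and myeloid cells, at 12.6 ± 0.529 FPKM, while its relatives Runx2 and Runx3 were at 0.131 and 0.00986 FPKM. Mitf, a factor of osteoclasts and pigment cells, stood at 7.38 ± 0.416 FPKM, and its family was led by Tfe3 at 23.9 ± 0.541 FPKM. Myc, at 2.02 ± 0.152 FPKM, was the lowest expressed member.

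Several factors that mark mature or tissue macrophages were under 0.01 FPKM on average or listed at 0. Maf, which restrains self-renewal in macrophages, had a mean of 0.00267 FPKM. Tfec, a macrophage member of the Mitf family, was listed at 0 in every library. So were Gata6 of peritoneal macrophages, Spic of red pulp macrophages and Sall1 of microglia. Pparg, the factor of alveolar macrophages, had a mean of 0.00774 FPKM.

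Transcripts of some defining macrophage genes were abundant and those of others were near or under 1 FPKM. Of 41 surface and identity genes, 32 were expressed (78%, where 44.9% of all genes were), with a median of 82 FPKM among those expressed. Lyz2, the lysozyme of macrophages and granulocytes, led at 1482, 1540 and 1486 FPKM (1503 ± 32.2, rank 23). Cd68 followed at 827, 789.6 and 759.5 FPKM (792 ± 34, rank 66), and Cd14, the co-receptor for lipopolysaccharide, at 676, 687 and 637 FPKM (667 ± 26.1, rank 83). The ranges of these 3 did not overlap. Itgam, the CD11b integrin chain, stood at 24.6 ± 1.04 FPKM and Fcgr1, the high-affinity Fc receptor, at 35.2 ± 1.87 FPKM. Adgre1, which encodes the F4/80 antigen used to identify mouse macrophages, was low at 1.74, 1.61 and 1.96 FPKM (1.77 ± 0.177, rank 9426). Axl was the lowest expressed member at 1.14 ± 0.136 FPKM, and Mertk, the related receptor for apoptotic cells, was listed at 0 in every library, as were Adgre4, Ly6c1 and Ly6c2. Of the defining markers of macrophages, Csf1r, Spi1, Cd68, Cd14 and Lyz2 were abundant, Adgre1 was near the threshold and Mertk was listed at 0.

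Of 27 genes of tissue-resident macrophage programs, 5 were expressed (18.5%) and 16 were listed at 0 in all libraries (59.3%), against 44.9% and 37.8% of all genes. Among them were Hmox1, heme oxygenase, at 71.7 ± 4.24 FPKM, Icam2 at 6.06 ± 0.385 FPKM, Fabp4 at 3.18 ± 0.513 FPKM and Slc40a1, the iron exporter ferroportin, at 1.61 ± 0.0623 FPKM. None of these overlapped the next in order. Hmox1 belongs to general stress responses as well as to iron-recycling macrophages. The scavenger receptors Cd163 and Marco, and Chil3 and Retnla of alternatively activated macrophages, were listed at 0. Mrc1, the mannose receptor, and Arg1, arginase, had means of 0.00524 and 0.0107 FPKM.

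The Csf1 receptor was expressed while its ligands were under 1 FPKM. Csf1 stood at 0.146, 0.0924 and 0.147 FPKM (0.129 ± 0.0313) and Il34 at 0.229, 0.236 and 0.32 FPKM (0.262 ± 0.0507), so neither reached 1 FPKM in any library, whereas Csf1r was at 291 FPKM or more. The same held for fractalkine: Cx3cl1 had a mean of 0.0387 FPKM beside Cx3cr1 at 75.2 FPKM. RANK (Tnfrsf11a), the receptor that drives osteoclast formation, stood at 14.4 ± 0.688 FPKM and its ligand Tnfsf11 was listed at 0. The chemokines Ccl3, Ccl4 and Ccl5 showed the opposite arrangement. Ccl3 and Ccl4, the latter at 109, 119 and 107 FPKM (112 ± 6.07), and Ccl5 at 10.5 ± 0.381 FPKM were expressed, while Ccr1, a receptor for them, was at 0.738, 0.811 and 0.746 FPKM. Trem2 was expressed with its signalling partner Tyrobp (DAP12), which stood at 378, 390.4 and 366 FPKM, and with the kinase Syk at 15.5 ± 0.627 FPKM. The Fc receptor chains Fcgr1, Fcgr3 (9.02 ± 0.224 FPKM) and Fcgr4 (4.86 ± 0.67 FPKM) lay below their shared gamma chain Fcer1g at 240.4 ± 13.8 FPKM.

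**Figure D2:**
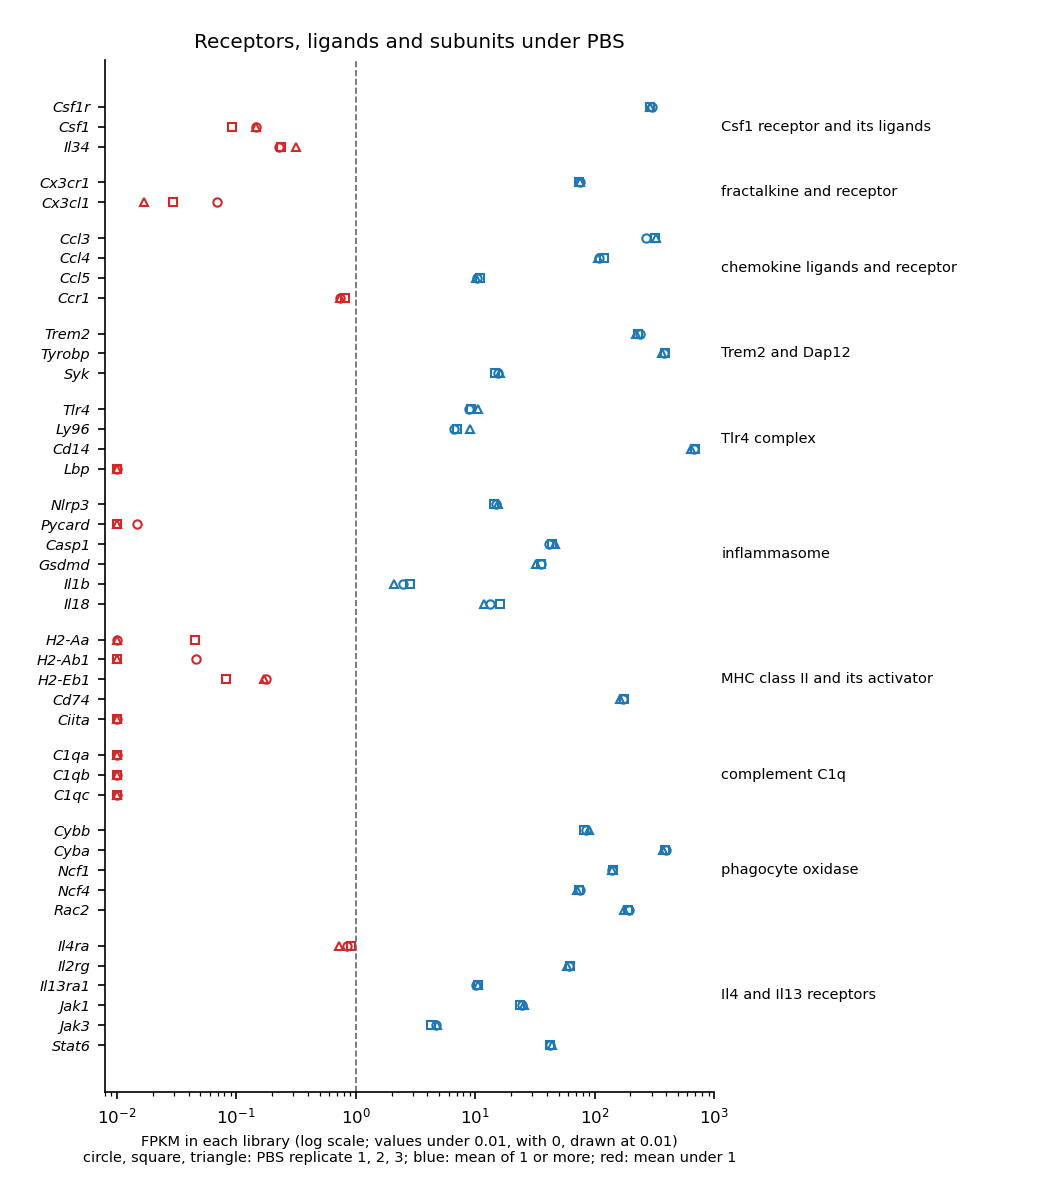
FPKM in each PBS library (x axis, log scale, values under 0.01 drawn at 0.01) of receptors, ligands and subunits, grouped by complex, with one symbol per replicate and a dashed line at 1 FPKM. Receptors such as Csf1r and Cx3cr1 lie to the right of the line and their ligands to the left, and Pycard, Ciita, the class II chains and C1q lie to the left of their partners or of the line.

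Of 35 pattern receptors, which bind microbial molecules, and their partners, 25 were expressed (71.4%, against 44.9% of all genes). Among Toll-like receptors, Tlr2, a receptor for bacterial lipoproteins, was highest at 44.4, 46.6 and 46.3 FPKM (45.8 ± 1.22), followed by Tlr7, a receptor for single-stranded RNA, at 26.9, 26.2 and 29.8 FPKM (27.6 ± 1.93). Then came Tlr13 at 14.5 ± 0.58 FPKM and Tlr4, the lipopolysaccharide receptor, at 8.94, 9.24 and 10.6 FPKM (9.59 ± 0.873). These 4 did not overlap. Tlr6, Tlr9 and Tlr3 lay between 2.19 and 3.35 FPKM and Tlr1 at 0.923 FPKM, and Tlr5, Tlr8, Tlr11 and Tlr12 were listed at 0 in all libraries. Accessory proteins differed in level from each other. Cd14 was 69.5 times Tlr4 by their means, and Unc93b1, which carries nucleic acid receptors to endosomes, stood at 104 ± 4.51 FPKM. Ly96 (MD-2), the partner of Tlr4 in the lipopolysaccharide receptor, stood at 6.69, 7.12 and 9.02 FPKM, below Tlr4 on average with overlapping ranges. The adaptor Myd88 stood at 57.3 ± 1.81 FPKM and the Trif adaptor Ticam1 at 6.34 ± 0.491 FPKM. Exons of Myd88 overlap those of Acaa1a on the opposite strand, and the sources used here do not state whether strand was used in counting.

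The transcript of the inflammasome adaptor was at or near 0. Pycard (ASC), which links Nlrp3 to caspase 1 and is known to be missing from this line, had values of 0.0147, 0 and 0 FPKM. Its partners were expressed: Nlrp3 at 15.1, 14.4 and 15.6 FPKM (15 ± 0.599), Casp1 at 41.3, 43.7 and 46.7 FPKM (43.9 ± 2.7) and the pore-forming Gsdmd at 34.4 ± 1.94 FPKM. Aim2, a DNA sensor that also uses ASC, stood at 18.4 ± 0.937 FPKM. The DNA-sensing pair Cgas and Sting1 stood at 16.7 ± 0.522 and 18 ± 0.535 FPKM, and their ranges did not overlap. The RNA sensors Rigi and Ifih1 stood at 15.2 ± 0.526 and 4.61 ± 0.178 FPKM. The C-type lectin Clec5a was the highest of that class at 77.3 ± 3.83 FPKM.

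Of 40 cytokine and growth factor receptors, 28 were expressed (70%, against 44.9% of all genes), and only Csf1r exceeded 100 FPKM. Il2rg, the common gamma chain, was next at 60.7 ± 1.94 FPKM, and Ifnar2 followed at 32.1 ± 0.974 FPKM. Both chains of each interferon receptor were present: Ifnar1 at 12.4 ± 0.103 FPKM, Ifngr1 at 16 ± 0.628 FPKM and Ifngr2 at 16.2 ± 1.57 FPKM, the last pair overlapping. The chains of some receptors differed in level. The Il4 receptor chain Il4ra was at 0.843, 0.91 and 0.722 FPKM (0.825 ± 0.0957), beside Il13ra1 at 10.4 ± 0.165 FPKM and Stat6, the factor it activates, at 42.9 ± 1.11 FPKM. Il1r1 was listed at 0 in replicates 1 and 2 and at 0.0148 FPKM in replicate 3, beside its partner Il1rap at 3.46 ± 0.0457 FPKM. For Il10, Il10ra stood at 3.94 ± 0.4 and Il10rb at 21.9 ± 0.363 FPKM. The Tnf receptors Tnfrsf1a and Tnfrsf1b stood at 27.7 ± 1.33 and 5.95 ± 0.0807 FPKM. Csf3r, the receptor for G-CSF, stood at 1.77 ± 0.187 FPKM, whereas Kit, Flt3 and Igf1r were listed at 0.

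Of 43 receptors for chemoattractants and nucleotides, 16 were expressed (37.2%), near the 44.9% of all genes, and 11 were listed at 0 (25.6%, against 37.8% of all genes). Cx3cr1 led, followed by Gpr84, a receptor for medium-chain fatty acids, at 35.4 ± 1.03 FPKM and Gpr183, an oxysterol receptor, at 35.3 ± 0.583 FPKM, which overlapped. P2ry6, a receptor for UDP, stood at 28 ± 2.15 FPKM and P2rx7, the ATP-gated channel, at 7.23 ± 0.721 FPKM. The complement receptors C3ar1 and C5ar1 stood at 5.01 ± 0.315 and 4.08 ± 0.303 FPKM. Ccr2, the receptor of inflammatory monocytes, was at 0.309 FPKM and Cxcr4 at 0.0721 FPKM, and both formyl peptide receptors, Fpr1 and Fpr2, were listed at 0.

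Uptake receptors were led by Cd68 and by the transferrin receptor Tfrc, which brings in iron, at 115, 114 and 126 FPKM (118 ± 6.67). Msr1, the class A scavenger receptor, stood at 49.5 ± 0.416 FPKM. Cd36, a scavenger receptor for oxidised lipoproteins, was low at 2.46 ± 0.138 FPKM. Among 32 integrins and adhesion molecules, 15 were expressed (46.9%), near the 44.9% of all genes. Cd44, the hyaluronan receptor, stood at 101 ± 4.46 FPKM, the beta 2 chain Itgb2 at 83.7 ± 2.88 FPKM and the alpha 4 chain Itga4 at 58.5, 58.9 and 69.6 FPKM (62.4 ± 6.3). Among the alpha chains that pair with Itgb2, Itgam stood at 24.6 FPKM, Itgal at 5.62 ± 0.294 FPKM and Itgax, the CD11c chain, at 1.45 ± 0.118 FPKM, with no overlap. Pecam1 and Itgb3 each had a mean under 0.1 FPKM.

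Of the secreted products listed, Spp1, osteopontin, was the highest at 1779, 1845 and 1876 FPKM (1833 ± 49.4, rank 14). The protease inhibitor Cst3 (cystatin C) stood at 1288, 1203 and 1136 FPKM (1209 ± 75.9, rank 33) and Mif, macrophage migration inhibitory factor, at 1159, 1114 and 1029 FPKM (1101 ± 66.2, rank 41), and these overlapped. Lgals1 and Lgals3, galectins that bind sugars on cell surfaces, stood at 479 ± 15.8 and 458 ± 18 FPKM and also overlapped. Grn, progranulin, is a growth factor of the lysosome that the naming rule does not cover and was picked for its level of 359 ± 13.3 FPKM after values were seen. Lpl, lipoprotein lipase, stood at 389.5, 421 and 443 FPKM (418 ± 27.1), whereas Apoe, the apolipoprotein that many macrophages secrete in bulk, stood at 6.64, 4.44 and 4.84 FPKM (5.31 ± 1.17). Cfp, properdin of the alternative complement pathway, was also picked after values were seen and stood at 118 ± 6.64 FPKM, while C1qa, C1qb and C1qc were listed at 0 in every library. The receptor for urokinase, Plaur, stood at 41.9 ± 0.976 FPKM beside Plau. Matrix metalloproteases were low, with Mmp12, the macrophage elastase, at 1.29 ± 0.303 FPKM and Mmp9 at 0.329 FPKM.

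Of 32 chemokines, 12 were expressed (37.5%) and 11 were listed at 0 (34.4%), near the 44.9% and 37.8% of all genes, and 3 of them carried most of the signal. The list summed to 657, 759.9 and 734 FPKM in replicates 1 to 3, of which Ccl3, Ccl9 (241, 282 and 263 FPKM, 262 ± 20.9) and Ccl4 made up the greater part. Ccl3 and Ccl9 overlapped in range, and within every library Ccl3 was the higher, by 1.12, 1.14 and 1.24 times. Ccl2, which recruits monocytes, stood at 5.47 ± 0.266 FPKM, Cxcl2, which recruits neutrophils, at 4.34, 4.68 and 6.43 FPKM and the interferon-induced Cxcl10 at 1.84 ± 0.0889 FPKM. Ccl6 was the lowest expressed chemokine at 0.879, 1.8 and 1.65 FPKM. Pf4, Cxcl1, Cxcl5 and Cxcl9 were listed at 0.

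Of 48 cytokines and growth factors 25 were expressed (52.1%), near the 44.9% of all genes. Tnf, the early inflammatory cytokine, stood at 110.1, 121 and 117 FPKM (116 ± 5.77, rank 628) in these unstimulated cells, and its sheddase Adam17 at 46.7 ± 2.17 FPKM. Tgfb1 stood at 104, 98.8 and 93.6 FPKM (98.9 ± 5.35) and Il1rn, the antagonist of the Il1 receptor, at 26.6 ± 1 FPKM. Il1b stood at 2.48, 2.84 and 2.11 FPKM (2.48 ± 0.368), so Tnf was 44.3, 42.8 and 55.7 times Il1b in the 3 libraries. Il6 and Il10 had means of 0.174 and 0.0451 FPKM, and Ifnb1, Il12a and Il12b were listed at 0. Il18, stored as a precursor, stood at 13.8 ± 2.07 FPKM.

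In the list of glucose uptake and glycolysis, 24 of 26 members were expressed (92.3%, against 44.9% of all genes). Its members summed to 11326, 11334 and 10772 FPKM. Of the other metabolic lists, that of iron and redox genes, which holds ferritin, summed to more, at 14256, 14237 and 13620 FPKM. One isoform held nearly the whole level at several steps. Pkm stood at 4127, 4036 and 3889 FPKM and its liver form Pklr was listed at 0. Ldha, which makes lactate, stood at 1411, 1479 and 1433 FPKM (1441 ± 34.4) and Ldhb was listed at 0. Aldoa stood at 1285 ± 39.3 FPKM, 98.2% of the aldolases, and Eno1 at 1296, 1251 and 1067 FPKM (1205 ± 121), 97.3% of the enolases. Other steps were shared, and among hexokinases Hk1 stood at 57 ± 3.18 and Hk3, the myeloid form, at 51.8 ± 3.47 FPKM, which overlapped. Slc2a1, the main glucose transporter, stood at 48.2 ± 1.06 FPKM, and the lactate exporters Slc16a3 and Slc16a1 at 116 ± 11.9 and 109.7 ± 3.13 FPKM. Gapdh stood at 80.5, 93.9 and 105 FPKM (93.1 ± 12.2, rank 832), and Pkm was 51.3, 43 and 37.1 times Gapdh. Gapdh is known for many near-identical processed copies in the mouse genome, so its level is uncertain, and their part in it was not tested. The lowest expressed member was Eno2 at 5.23 ± 0.51 FPKM.

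All 8 enzymes of the pentose phosphate pathway were expressed, against 44.9% of all genes, with a median of 112 FPKM. G6pdx, its first step, stood at 119 ± 3.15 FPKM. Pgd at 229 ± 6.95 FPKM and Taldo1 at 222 ± 14.7 FPKM headed the list, and their ranges overlapped. The NADPH they make feeds the phagocyte oxidase, whose subunits were abundant. The catalytic chain Cybb stood at 84.5, 81.3 and 89.9 FPKM (85.3 ± 4.33) and its partner Cyba at 397, 390.3 and 372 FPKM (386 ± 13). The cytosolic subunits Ncf1 and Ncf4 stood at 140.1 ± 2.16 and 73.8 ± 2.16 FPKM, and Rac2, their GTPase, at 188 ± 8.74 FPKM. No other NADPH oxidase reached 1 FPKM.

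All 28 genes of the tricarboxylic acid cycle and its entry were expressed, against 44.9% of all genes. Their median was 78.7 FPKM. Mdh2, malate dehydrogenase, was highest at 396, 389 and 364 FPKM (383 ± 17). Pcx, pyruvate carboxylase, was the lowest at 3.92 ± 0.144 FPKM. Of 38 nuclear genes of complex I, 36 were expressed (94.7%, against 44.9% of all genes). The expressed ones ranged from Ndufc1 at 26.1 FPKM to Ndufb8 at 193 ± 4.32 FPKM. The mitochondrial genome itself ranged from mt-Nd3 at 196 FPKM to mt-Co1 at 10142 FPKM.

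Of 31 genes of fatty acid and lipid handling 28 were expressed (90.3%, against 44.9% of all genes), 7 of them at 100 FPKM or more. All 25 genes of cholesterol synthesis and uptake were expressed, against the same 44.9% of all genes. Their median was 28.1 FPKM and 1 was above 100, Fdps at 316, 328 and 307 FPKM (317 ± 10.4). Sqle, squalene epoxidase, stood at 63.9 ± 0.265 FPKM. The summed level of the list differed little between libraries, at 1126, 1128 and 1131 FPKM. Of the desaturases, Scd2 stood at 113 ± 3.47 FPKM and Scd1 at 12.5 ± 0.462 FPKM, and Scd2 was 8.88, 9.16 and 9.14 times Scd1. Plin2, the coat of lipid droplets, stood at 113 ± 4.05 FPKM. Cholesterol exporters were low: Abcg1 stood at 4.09 ± 0.247 FPKM and Abca1, which loads cholesterol onto apolipoprotein A1, at 0.00975 FPKM.

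Of 25 amino acid, nitric oxide and itaconate enzymes 19 were expressed (76%, against 44.9% of all genes), 7 of them at 100 FPKM or more. Odc1, which makes polyamines, was highest of the list at 411, 414 and 408 FPKM (411 ± 2.75, rank 151). Phgdh, the first step of serine synthesis, stood at 245 ± 13.7 FPKM and Shmt2, which passes carbon from serine to folate, at 232 ± 10.1 FPKM. Nos2, the inducible nitric oxide synthase, had a mean of 0.835 FPKM, and Ido1 was listed at 0. Acod1, which makes itaconate in activated macrophages, was already detectable at 11.5, 10.7 and 10.1 FPKM (10.8 ± 0.694).

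Iron storage and lysosomes were also high. Besides ferritin, the peroxidase Gpx1 was next in the iron and redox list at 525, 493 and 389 FPKM (469 ± 71.1), lowest in replicate 3, and Prdx1, a peroxiredoxin, stood at 372 ± 17.5 FPKM. Nqo1 had a mean of 0.123 FPKM. Of 32 lysosomal genes, 30 were expressed (93.8%, against 44.9% of all genes) with a median of 98.6 FPKM. The proteases Ctsd and Ctsb stood at 833 ± 42.6 and 734 ± 20.6 FPKM, Ctsz at 504 ± 20.2 FPKM and the membrane protein Lamp1 at 437 ± 3.17 FPKM. Psap, the precursor of sphingolipid activators, stood at 354 ± 7.94 FPKM. The cathepsins Ctsk and Ctsh were not expressed, with means of 0.381 and 0.363 FPKM.

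Every listed gene of G1 and S phase, of DNA replication and of G2 and mitosis was expressed, where 44.9% of all genes were. The list of G1 and S phase also holds Rb1, which is listed among the brakes on the cycle as well. All 22 regulators of G1 and S phase, all 38 genes of DNA replication and all 32 genes of G2 and mitosis were expressed, with medians of 18.9, 50.5 and 54.6 FPKM, where the median of all expressed genes was 14.3. Cdk4 and cyclin D1 (Ccnd1), the kinase and cyclin that open G1, stood at 225, 231 and 213 FPKM (223 ± 8.83) and 189, 183 and 175 FPKM (182 ± 6.75). Cdk4 was 16.4 times its relative Cdk6 by their means. Exons of Cdk4 overlap those of Tspan31, at 45.3 FPKM, on the opposite strand. Pcna, the replication clamp, stood at 324, 352 and 337 FPKM (338 ± 14.5), Rrm2, of ribonucleotide reductase, at 212 ± 1.15 FPKM and Mcm5, of the replicative helicase, at 160.2 ± 8.2 FPKM. Orc1 was lowest of the replication genes at 9.13 ± 0.388 FPKM. Ube2c, the ubiquitin-conjugating enzyme of the anaphase-promoting complex, stood at 183, 187 and 165 FPKM (178 ± 11.5), Cenpa, the centromeric histone, at 133 ± 8.68 FPKM and Birc5 at 122 ± 2.73 FPKM. Ccnb1 stood at 104 ± 2.12, Top2a at 89.9 ± 6.38, Plk1 at 68.8 ± 3.19, Cdk1 at 42.1 ± 0.885 and Mki67 at 41.1 ± 3.88 FPKM. The lowest mitotic gene was Cenpf at 6.89 ± 0.779 FPKM.

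Mycn, and not Myc, was the abundant member of its family. Mycn, a transcription factor of growth best known from embryonic tissue and neuroblastoma, had rank 154 and made up 99.5 ± 0.052% of the summed FPKM of its family. It was 218, 209 and 179 times Myc in the 3 libraries, with Mycn at 407 ± 19.7 FPKM, and Mycl was listed at 0.

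Brakes on the cycle were uneven. Cdkn2a, which encodes p16 and p19ARF, and its neighbour Cdkn2b, which encodes p15, were listed at 0 in every library, as was Cdkn1c. The remaining Cdk4 inhibitors Cdkn2d and Cdkn2c stood at 41.8, 40.3 and 37.8 FPKM and 27.7, 28.4 and 27.4 FPKM (27.8 ± 0.509). Trp53, the tumour suppressor p53, was the highest of the list at 158, 154 and 145 FPKM (152 ± 6.41, rank 461). Its targets Cdkn1a (p21) and Mdm2, the ligase that degrades p53, stood at 32.6 ± 0.885 and 19.1 ± 0.771 FPKM. Gadd45a was the lowest expressed member at 1.23 ± 0.102 FPKM. Rb1, the retinoblastoma protein gene, stood at 4.74 ± 0.413 FPKM.

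Over 45 families of related genes, whose members need not be interchangeable, the highest member held a median of 61% of the summed FPKM. In 10 families it held over 90%, in 19 over 75% and in 11 under 50%. The library ranges of the highest member and the next overlapped in 4 families: hexokinase, monocarboxylate transporter, ferritin and galectin. Signalling families were among the more mixed. Akt1 stood at 159.7 ± 3.64 FPKM and held 83.3% of the AKT kinases, but Jak1 held 46.5% of the Janus kinases, Stat6 41.7% of the STATs and Nfkb1 39.7% of the NF-kB subunits. Lyn, at 44.9 ± 1.87 FPKM, led the SRC family with 52.7%. Irf5 led the interferon regulatory factors with 33.2%, ahead of Irf7 at 52.5 ± 2.2 FPKM. Rac2, restricted to blood cells, was 2.27, 2.12 and 1.99 times Rac1. Members of one family can share sequence, and the sources used here do not state how fragments that map to several genes were handled.

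**Figure D3:**
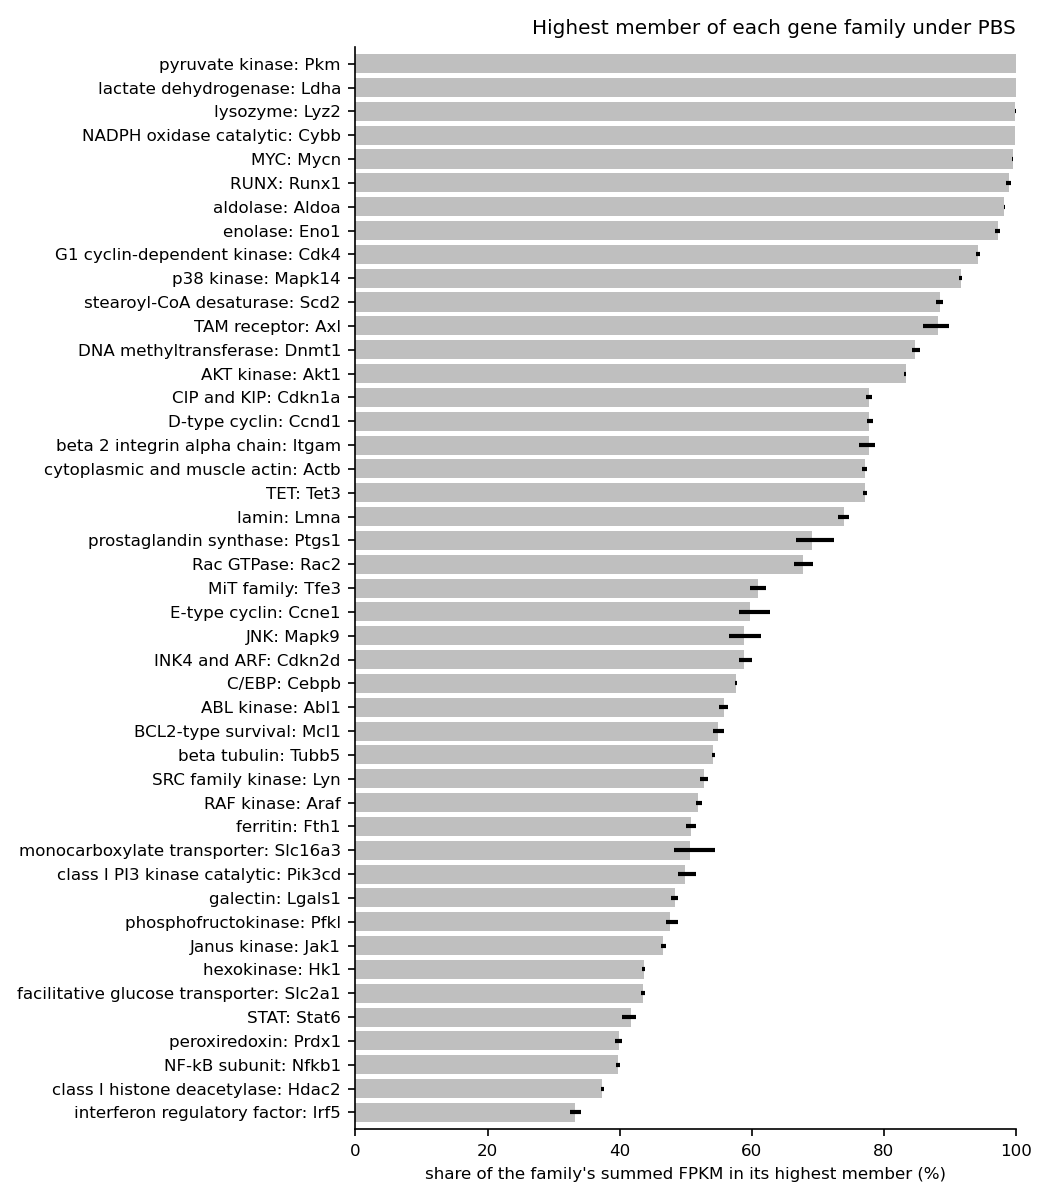
Share of the summed FPKM of each of 45 gene families held by its highest member (bar, mean of 3 PBS libraries, x axis in %), with the lowest and highest library as a black line. Pkm, Ldha, Lyz2, Cybb and Mycn fill nearly their whole family, and Irf5 holds the smallest share at 33.2%.

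Among genes of antigen presentation, class I loading genes were expressed and class II chains were near 0. The heavy chain genes of class I are not reported here, so the classes were not compared on like genes. For class I, B2m stood at 608, 684 and 676 FPKM (656 ± 42.2), the loading factor Tapbp at 117 ± 6.06 FPKM and the transporter genes Tap1 and Tap2 at 14.5 ± 0.372 and 14.7 ± 0.718 FPKM, which overlapped. For class II, Cd74, the invariant chain, stood at 174, 178 and 163 FPKM (172 ± 7.77), while the activator Ciita was listed at 0 and H2-Aa, H2-Ab1 and H2-Eb1 had means of 0.0151, 0.0155 and 0.144 FPKM. The costimulatory gene Cd86 had a mean of 0.0656 FPKM, and Cd80 was at 0.841, 1.21 and 1.11 FPKM.

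Markers of other cell types were almost all at or near 0. Of 8 epithelial markers all were listed at 0, and no member of the neutrophil, natural killer cell, mast cell, erythroid, fibroblast, endothelial or neuron, muscle, liver and pluripotent cell lists reached 1 FPKM. The summed level of each of these lists stayed between 0 and 1.07 FPKM in every library. Among lymphocyte markers, Blnk, an adaptor of B cell receptor signalling that myeloid cells also use, stood at 20.2 ± 0.576 FPKM and the T cell kinase Lck at 2.84, 2.21 and 2.61 FPKM (2.55 ± 0.321), beside Ms4a1, Cd3e and Cd3g listed at 0. Of 14 dendritic cell markers, 3 were expressed (21.4%, against 44.9% of all genes), the highest being Cd40 at 2.71, 1.67 and 1.87 FPKM. RAW264.7 is also used as an osteoclast precursor. Of 10 osteoclast genes 4 were expressed (40%), near the 44.9% of all genes. Dcstamp, a fusion protein, stood at 33.9 ± 1.75 FPKM and Nfatc1, the main osteoclast factor, at 27.6 ± 0.67 FPKM. Acp5 (TRAP) stood at 7.11 ± 0.674 FPKM and Atp6v0d2 at 1.9 ± 0.212 FPKM. The effector genes of mature osteoclasts, Ctsk and Mmp9, were below 1 FPKM.

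**Figure D4:**
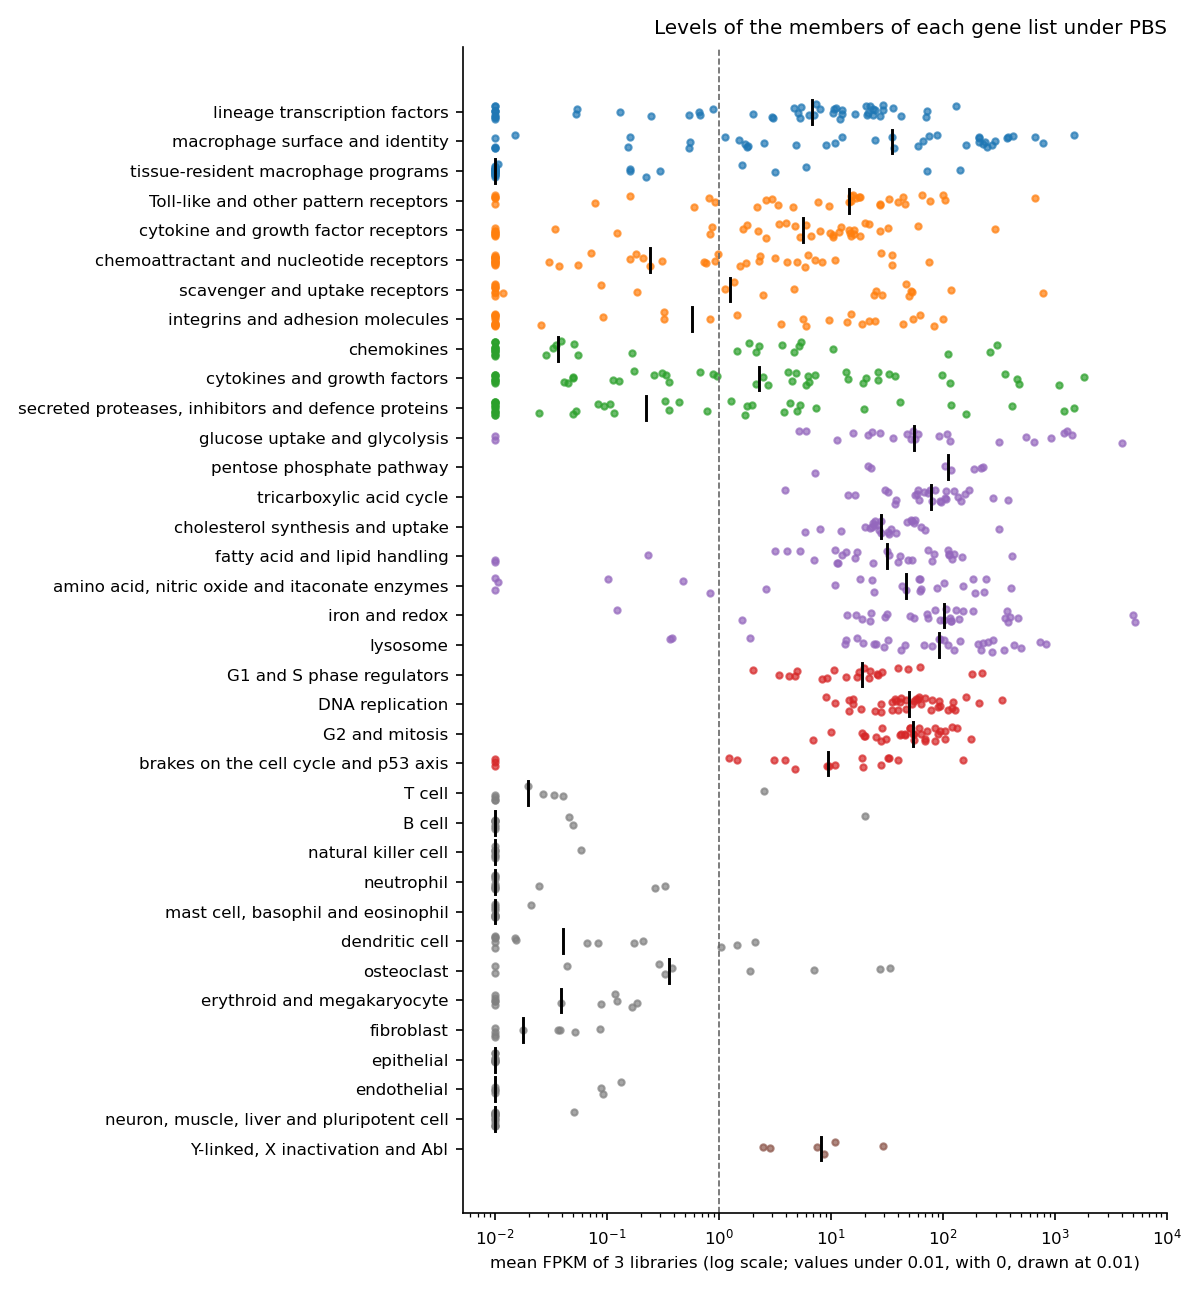
Mean FPKM over the 3 PBS libraries (x axis, log scale, values under 0.01 drawn at 0.01) of every member of each gene list as a point, coloured by section, with a black bar at the list median and a dashed line at 1 FPKM. Metabolic and cell cycle lists lie mostly to the right of the line, receptor and secreted lists straddle it, and lists of other cell types lie mostly to its left, apart from 4 of 10 osteoclast genes, 3 of 14 dendritic cell genes, Lck and Blnk.

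Genes of the Y chromosome were expressed, as known for a line of male origin. Eif2s3y, a translation factor, stood at 27.3, 29.2 and 31.3 FPKM (29.3 ± 1.99), the helicase Ddx3y at 7.59 ± 1.17 FPKM and the histone demethylases Kdm5d and Uty at 2.86 ± 0.301 and 2.49 ± 0.19 FPKM. These were the only 4 of 151 Y-linked genes expressed (2.65%, against 44.9% of all genes). Abl1, the cellular relative of the viral oncogene, stood at 11.4, 9.95 and 11.3 FPKM (10.9 ± 0.79). The reference genome is that of C57BL/6, so reads of the viral gene or of BALB/c alleles were not told apart here. By chromosome, 53.7% of the genes on chromosome 11 were expressed and 32.7% of those on X.

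Several gene families had few expressed members or none, where 44.9% of all genes were expressed. Of 1138 olfactory receptors, 2 were expressed, with the highest at 2.24 FPKM. None of 349 vomeronasal receptors and none of 49 keratins reached 1 FPKM, and 7 of 100 cytochrome P450 genes did, led by Cyp51 of cholesterol synthesis at 32.5 FPKM. Of 66 replication-dependent histone genes 11 were expressed (16.7%, against 44.9% of all genes). The family held 0.0129 ± 0.00126% of the FPKM, in cells that expressed all listed genes of DNA replication. Their transcripts lack a poly(A) tail, and the labels' protocol includes enrichment of mRNA. The part of that enrichment in the histone level was not tested. Of 83 cytosolic ribosomal protein genes 80 were expressed (96.4%, against 44.9% of all genes). Their levels ran from 3.12 ± 0.0585 FPKM for Rpl21 to 1728 ± 105 FPKM for Rpsa. How fragments that map to several genes were handled is not stated, so these levels are uncertain, and its part in this range was not tested.

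Of the 10 genes that differed most between the 3 libraries, 7 share their locus with another expressed row on the same strand. The share of such rows over all genes was not computed. Of expressed genes whose mean was 10 FPKM or higher, Gm38431 stood at 63.2, 4.14 and 3.68 FPKM and the overlapping Fdx2, a mitochondrial ferredoxin, at 25.3, 83 and 81.3 FPKM, high in the opposite libraries. Fdx2 and the 2 expressed rows that overlap it on its strand summed to 91.7, 87.7 and 85.7 FPKM, with an SD on the log2 scale of 0.0491 against 0.959 for Fdx2 alone. Nme1nme2, a readthrough row, stood at 9.6, 51.9 and 9.86 FPKM, and with Nme1 and Nme2 the sum was 481, 513 and 443 FPKM. Pagr1a stood at 17.8, 15.7 and 1.52 FPKM and, with Gm42742, at 33.8, 33.6 and 27.8 FPKM. Brms1 and Gm50388 also overlap, and Brms1 was high in replicate 2 and Gm50388 in replicate 1. Their sum stayed uneven at 23.2, 35.9 and 26 FPKM, with an SD on the log2 scale of 0.315 against 1.39 for Brms1 alone. With B4gat1 as well, which overlaps Gm50388, the sum was 25.7, 48.3 and 30.0 FPKM. Of the other 4, Zc3h11a overlaps Zbed6, and their sum also stayed uneven at 21.4, 14.3 and 25.5 FPKM. Rps27a (389, 1042 and 1008 FPKM), Agpat5 (12.1, 33.5 and 12.8 FPKM) and Srp54a (17.1, 13.9 and 39.5 FPKM) have no expressed row on their strand in the same place. Rps27a makes a fusion of ubiquitin and a ribosomal protein.

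**Figure D5:**
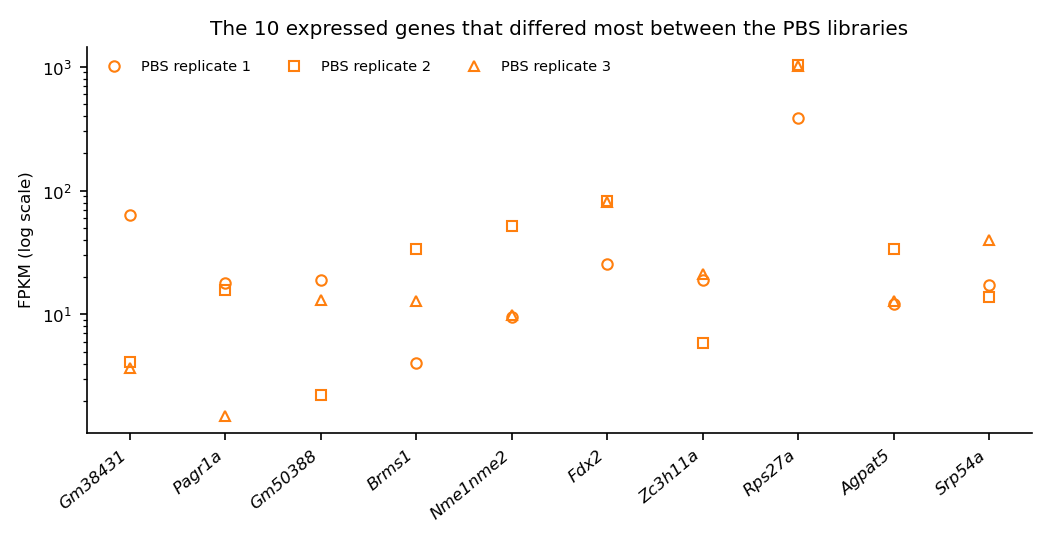
FPKM (y axis, log scale) in each PBS library of the 10 genes at 10 FPKM or higher whose log2 values had the largest SD, with one symbol per replicate. For 5 of the first 6 genes one library stands apart from the rest, and Gm38431 and Fdx2 go in opposite directions.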

How the data were processed

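RNA sequencing was done on RAW264.7 cells. RNA was isolated with TRIzol and libraries were made by a BGI method for mRNA, per the labels' protocols. The deposited table held one value per gene and library. The deposited values were taken to be FPKM computed by the authors. The header names no unit, so this was inferred from the values, and TPM with rows taken out cannot be told apart from it. STAR, featureCounts, GRCm38 and mm10 stand in the submitters' processing notes, with no version. Sums over the genes were 458625, 466386 and 455095 FPKM. Low values did not come out as whole reads, so the depth is unknown and no counting interval is given.

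The other 3 value columns, of the nanoparticle libraries, were not used. The 3 PBS columns were matched to libraries by name. The one of replicate 1 carries a suffix that the sources used here do not explain. The 509 rows without an Ensembl gene identifier were left out, with 0.427% to 0.452% of the FPKM of a library. GENCODE M21 (GRCm38) supplied coordinates and gene types for 21995 rows. A gene was expressed from a mean of 1 FPKM. Spread was the SD of log2(FPKM + 1). Levels are given with no test, since there is 1 group. The code for spread and ranks was tested on simulated data. Python 3.11.15, pandas 2.3.3 and matplotlib 3.10.9 were used.

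The members and the 36 gene lists, 45 families and 26 complexes were chosen with earlier results of these data known. Genes were named by a rule: the 10 highest, the 6 marks of the line, set genes plus the 3 highest and the lowest expressed of each list, the top pair of each family, all members of complexes and the 10 most variable from 10 FPKM. Chosen outside it, after values were seen, were Aim2, Ccnb2, Cd63, Cfp, Clec5a, Csf3r, Ctsh, Cxcl10, Cyp51, Grn, Ifih1, Itgb3, mt-Nd3, Ndufb8, Ndufc1, Nqo1, P2ry6, Pecam1, Pparg, Rb1, Rigi, Rpl21, Rpsa, Runx3 and the rows named for overlapping another. Trac, Vpreb1 and Xist were listed but are not analysed here, and some genes that the rule covers are not reported here. Of 601 listed and expressed genes, 54 share exon bases with another gene of at least 10 FPKM, and the sources used here do not state whether strand was used in counting. Alternatives were other thresholds, scalings, pseudocounts and gene sets, and leaving out each library.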

Additional observations from a re-analysis of the deposited data

How the results depend on the processing

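The number of expressed genes ran from 9300 at a mean of at least 2 FPKM to 10424 after each library was rescaled to one fixed sum (TPM), and 9913 to 9927 genes passed with 1 library left out. All 107 ranks of set genes stayed within 1.5 times under each scaling, among protein-coding genes and without each library, and levels of 125 of 155 moved by more than their SD when libraries were rescaled to one fixed sum (TPM), since that multiplies every value. Of 36 list counts, that of dendritic cell markers moved: 1 of 14 at a mean of at least 2 FPKM, 2 with at least 1 FPKM in each library and 2 without PBS replicate 2. The share of the 10 highest genes became 7.26% without mitochondrially encoded genes and 11.4% without ribosomal protein genes, and 9.98% to 10.3% without single libraries. The median SD on the log2 scale was 0.0797 with a pseudocount of 0.1, 0.0416 with a pseudocount of 10, 0.0646 over all genes above 0 and 0.0628 over genes from 10 FPKM, and 0.0542 to 0.0624 over pairs of libraries. No paired analysis was possible because only 1 group was described. With unknown depth, a gene listed at 0 is not shown to be absent.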

Other observations

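Beyond the lists, the 509 rows without a gene name held 147 with a mean of at least 1 FPKM, the highest at 347 FPKM. The sources used here do not state which genes they stand for.

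Transport genes outside the comparisons, chosen after values were seen, were led by carriers of the inner mitochondrial membrane. Of 347 solute carriers 155 were expressed (44.7%), near the 44.9% of all genes, and the highest were the ATP carrier Slc25a5 at 687 FPKM and the phosphate carrier Slc25a3 at 364 FPKM. Slc1a5, a glutamine transporter, followed at 153 FPKM. Of 380 genes named Zfp, 227 were expressed (59.7%, against 44.9% of all genes). Their median was 3.49 FPKM, below the 14.3 FPKM of all expressed genes, and Zfp207 alone exceeded 100 FPKM. All 18 nuclear genes of ATP synthase were expressed, against 44.9% of all genes, with a median of 211 FPKM. Of 22 subunits of the vacuolar proton pump 17 were expressed (77.3%, against 44.9%), led by Atp6v0c at 281 FPKM.

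When olfactory and vomeronasal receptor genes were left out, the share of expressed genes on chromosome 7 went from 37% to 47%, while that on X was 32.7% before and 33% after, and that on chromosome 14 was 34.5% and 35.9%.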
